A study of Mus with 6 samples.

Results

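Interferon-stimulated genes are the genes that cells switch on when interferons bind their receptors. The 43 genes described here were chosen by name, as interferon-induced genes and their regulators, among 48882 genes of the deposited table. All 43 were found in it, had a value in every library and passed the abundance filter, a mean of at least 0.5 TPM (a length-corrected share of all transcripts in a library). RNA was sequenced from 3 liver samples of wild type mice and 3 of Fabp4 knockout (FABP4-/-) littermates. Both groups had received a Lieber-DeCarli liquid diet with ethanol for 8 weeks followed by a single ethanol binge, a regimen that produces alcoholic steatohepatitis, fatty and inflamed liver. Fabp4 encodes a fatty acid-binding protein of adipocytes, macrophages and capillary endothelium. The sources used here do not give the strain, the targeted allele or the age of the mice, and no livers of mice kept off ethanol were analysed here.

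Type I interferons act through the receptor chains Ifnar1 and Ifnar2 and the kinases Jak1 and Tyk2, and a transcription factor complex that holds Stat2 and Irf9 then switches on antiviral genes. Interferon gamma acts through Ifngr1 and Ifngr2 and the kinases Jak1 and Jak2, and is the main inducer in mice of 2 GTPase families, the guanylate-binding proteins (Gbp genes) and the immunity-related GTPases (Irgm1, Igtp, Iigp1, Tgtp1). The programmes overlap, and many of these genes answer to both signals. In the liver, hepatocytes, Kupffer cells (the resident macrophages) and endothelial cells can all carry such responses.

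In the sequenced livers no interferon-stimulated gene passed the limma test across the whole table (Benjamini-Hochberg adjusted p under 0.05; smallest adjusted p 0.387 for Ifi27). The test called 0.00706% of 14155 genes, which was 1 gene, Fabp4 itself, listed without a value in every knockout library and at 14.7, 8.15 and 19.96 TPM in replicates 1, 2 and 3 of the wild type. At an unadjusted p under 0.05 there were 6 of the 43, 5 higher and 1 lower in the knockout, against 8.03% of all genes (5.12% higher and 2.91% lower). Without wild type replicate 1 there were 10 of the 43, beside 853 higher and 362 lower among the 14151 genes tested there. Without knockout replicate 2 there were 4 of the 43, beside 652 higher and 300 lower among 14194 genes. With every library kept, 725 of all genes were higher and 412 lower at that unadjusted p. This split became 580 and 521 after median scaling and 570 and 537 after quantile normalization. For 7 of the 43 the groups did not overlap, with all 3 knockout libraries on one side of all 3 wild type libraries, a share of 16.3%, against 13.3% of all genes (8.94% above and 4.38% below). With 3 against 3 libraries the exact two-sided permutation test of a single gene cannot give a p below 0.1, and each of the 7 was at 0.1.

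The medians of the antiviral and the gamma-linked genes lay on different sides of 0. Of 34 type I-linked genes (antiviral effectors, sensors and regulators, with Irf1 left out because it answers to both signals), 26 were higher in the knockout, with a median log2 difference of 0.15. Of 8 gamma-linked GTPase genes 7 were lower, with a median of -0.17. Over all genes tested 57.4% were higher, with a median of 0.04. After median scaling 50.9% of all genes were higher (median 0.0041), and after quantile normalization 50.5% (median 0.0019). The type I-linked and gamma-linked medians were 0.13 and -0.20 after median scaling and 0.11 and -0.20 after quantile normalization. Both lists depended on single libraries: without wild type replicate 2 the type I-linked count was 19 of 34 and the median 0.06, and without wild type replicate 1 only 2 of 8 gamma-linked genes were lower and their median was 0.13. The type I-linked median was also 0.06 without knockout replicate 3, and it was 0.24, 0.29 and 0.34 without wild type replicate 3, wild type replicate 1 and knockout replicate 1. The gamma-linked median was -0.45 when wild type replicate 2 was left out, -0.28 when knockout replicate 2 was and -0.08 when knockout replicate 1 was. These counts and medians are descriptions, and no test was made over the lists.

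**Figure D1:**
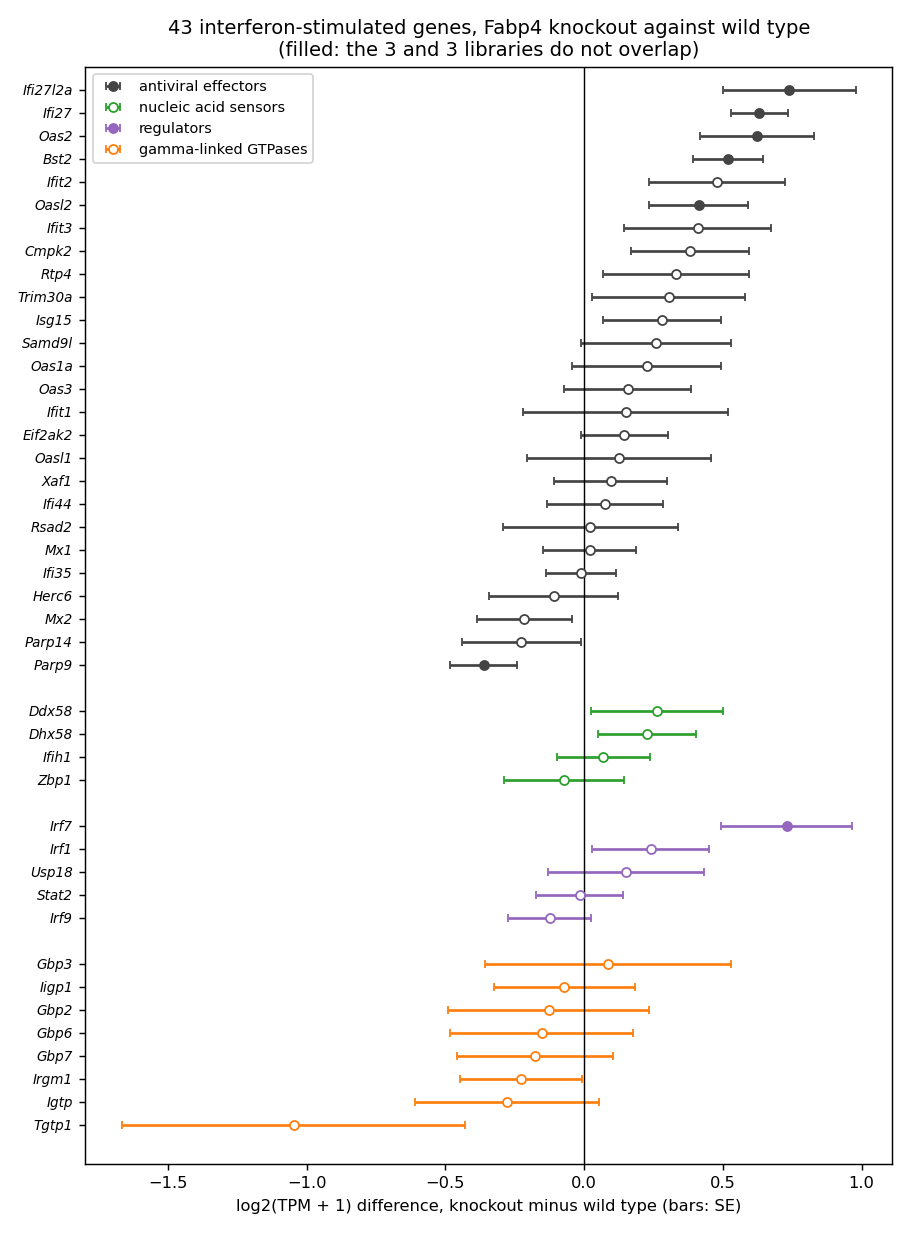
Difference of each of the 43 genes between knockout and wild type livers on the log2(TPM + 1) scale (points) with its standard error (bars), by role; filled points mark the 7 genes whose 3 knockout and 3 wild type libraries do not overlap. Antiviral effectors spread from -0.36 (Parp9) to 0.74 (Ifi27l2a), and 7 of the 8 gamma-linked GTPase genes lie below 0.

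Of 26 antiviral effectors 21 were higher and 5 lower in the knockout, and 0 passed the test over all genes (4 higher and 1 lower at an unadjusted p under 0.05). Of all genes tested 57.4% were higher, and 5.12% were higher and 2.91% lower at that unadjusted p. Ifi27, which encodes a small interferon-inducible membrane protein, lay at 72.3, 73.3 and 73.5 TPM in replicates 1, 2 and 3 of the wild type against 112.8, 114.1 and 114.2 TPM in knockout replicates 1, 2 and 3. The groups did not overlap, and within each group the highest library exceeded the lowest by less than the difference between groups (1.02-fold in wild type and 1.01-fold in the knockout, against 1.56-fold between the group means). Only 3 of the 14155 genes had a smaller spread within groups (SD 0.011 on the log2 scale). The log2 difference was 0.63 (SE 0.10, limma adjusted p 0.387), and it lay between 0.59 and 0.64 under the 15 alternatives tried. This SE and p come from limma's moderated test, which draws on the spread of all genes and not on that of Ifi27 alone.

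Ifi27l2a, a relative of Ifi27, was at 12.6, 6.65 and 6.42 TPM in replicates 1, 2 and 3 of the wild type against 15.9, 13.8 and 13.4 TPM in those of the knockout. The knockout values lay above all wild type values, but the gap to wild type replicate 1 was small (log2 difference 0.74, SE 0.24; limma adjusted p 0.542). Both genes lie on mm10 chromosome 12 and overlap on opposite strands, Ifi27 from 103434182 to 103440245 on the plus strand and Ifi27l2a from 103433873 to 103443680 on the minus strand, so that 6064 bases are shared. The sources used here do not say whether the authors' quantification used strand, so reads of these genes may not have been told apart.

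Bst2 encodes tetherin, which holds budding virus particles at the cell surface, and was the most abundant of the 43 genes. It lay at 194, 161 and 196 TPM in wild type livers against 253, 274 and 259 TPM in knockout livers. All 3 knockout values were above all wild type values, a 1.43-fold ratio of the group means (183 ± 19.8 against 262 ± 10.9 TPM, SD, n = 3 each; log2 difference 0.52, SE 0.13; limma adjusted p 0.522).

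The 2′-5′-oligoadenylate synthetases make the messenger that turns on RNase L against viral RNA. Oas2 (mm10 chromosome 5, 120730333 to 120749874) was low, at 1.17, 0.35 and 0.8145 TPM in wild type livers and 1.45, 1.95 and 1.69 TPM in the knockout, with no overlap (log2 difference 0.62, SE 0.21; limma adjusted p 0.551). Its difference depended on the pseudocount, with 1.15 at a pseudocount of 0.1 and 0.21 at 5. Its neighbour Oas3 (chromosome 5, 120753098 to 120777659) was at 0.210 to 0.996 TPM over the 6 libraries, and Oas1a at 1.40 to 3.58 TPM, both with overlapping groups. The synthetase-like gene Oasl2, at 2.99, 1.70 and 2.59 TPM in wild type livers and 3.24, 3.39 and 3.90 TPM in the knockout, had groups that just failed to overlap (log2 difference 0.41, SE 0.18; limma adjusted p 0.625). Oasl1, next to it on chromosome 5, had overlapping groups (0.13, SE 0.33).

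Parp9 was the 1 member that lay lower in every knockout library than in any wild type library. It encodes a macrodomain protein that works as a pair with the ubiquitin ligase Dtx3l in interferon responses. Parp9 lay at 38.6, 33.4 and 31.7 TPM in wild type livers against 26.8, 27.3 and 25.7 TPM in the knockout, with no overlap (log2 difference -0.36, SE 0.12; limma adjusted p 0.559). Dtx3l, no member of the 43, lay at 32.3, 22.9 and 26.1 TPM in wild type livers against 23.1, 13.4 and 16.2 TPM in the knockout, with a marginal overlap through knockout replicate 1 (log2 difference -0.62, SE 0.21; limma adjusted p 0.564). The first 558 bases of Parp9 on chromosome 16 (35938470 to 35939027) overlap Dtx3l on the opposite strand. The lncRNA Gm15564 (1.87 to 3.53 TPM) covers 5871 bases of Parp9, also on the opposite strand. As for Ifi27, reads of these genes may not have been told apart. Of the 43 genes, 15 overlap another gene on the opposite strand. Parp14, which lies within 100000 bases of Parp9, had overlapping groups (-0.23, SE 0.22).

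**Figure D2:**
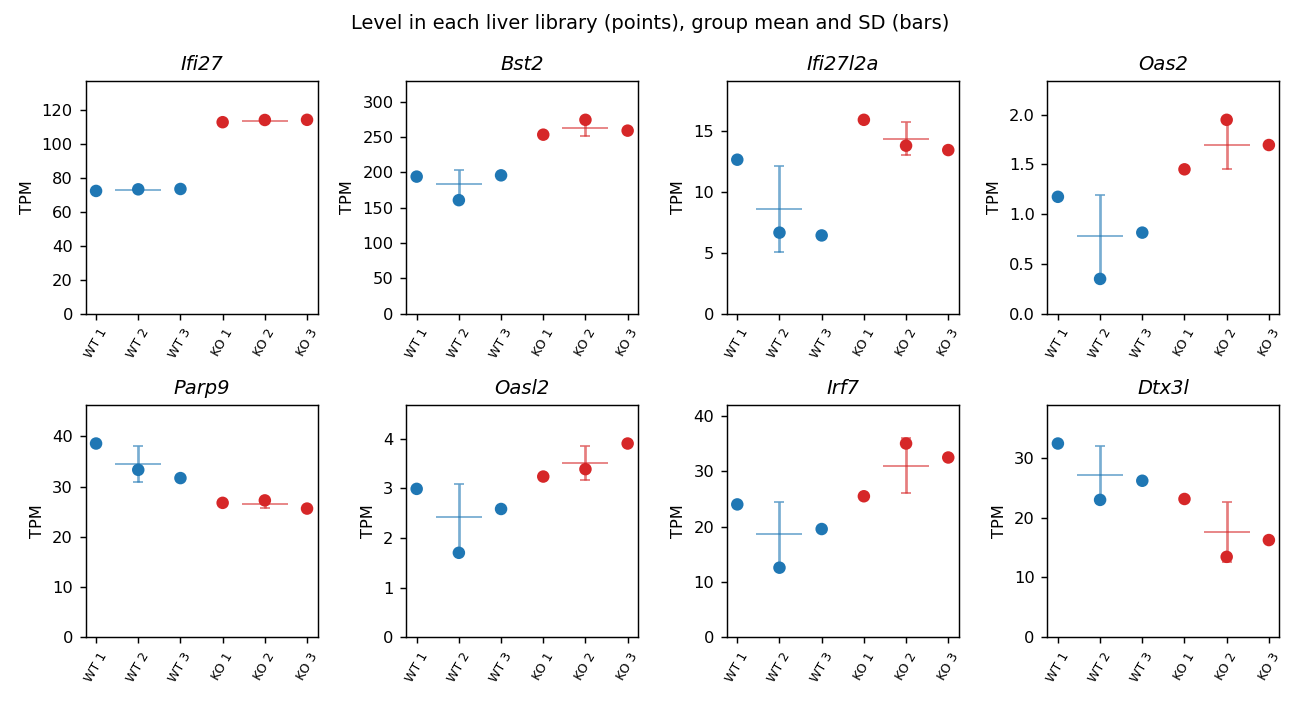
TPM in each liver library (points; blue wild type, red knockout) with the group mean and SD (bars) for the 7 interferon-stimulated genes whose groups do not overlap and for Dtx3l, the partner of Parp9. Ifi27 sits at 72.3 to 73.5 TPM in wild type livers and 112.8 to 114.2 TPM in the knockout, and Parp9 is the 1 of the 7 that is lower.

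Of the 26 antiviral effectors 6 (23.1%, 5 higher and 1 lower) had groups that did not overlap, against 13.3% of all genes (8.94% higher and 4.38% lower). For the other 20 antiviral effectors the groups overlapped, with log2 differences from -0.23 to 0.48 and limma adjusted p from 0.690 to 0.990. Ifit2, Ifit3 and Ifit1, neighbours on chromosome 19 that encode RNA-binding inhibitors of translation, differed by 0.48 (SE 0.25), 0.41 (SE 0.26) and 0.15 (SE 0.37). Ifit1 was at 11.2, 4.19 and 10.8 TPM in wild type livers and 5.91, 11.7 and 10.7 TPM in the knockout, so that wild type replicate 2 and knockout replicate 1 were both low. Isg15, a ubiquitin-like protein that is coupled to other proteins, was at 13.2, 10.8 and 15.5 TPM in wild type livers and 12.2, 21.0 and 16.1 TPM in the knockout (0.28, SE 0.21). A lncRNA on the opposite strand covers 776 bases of Isg15.

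Rsad2 (viperin, which makes a chain-terminating nucleotide) and its neighbour Cmpk2 on chromosome 12 differed by 0.02 (SE 0.32) and 0.38 (SE 0.21). Rsad2 was at 6.13, 2.53 and 3.76 TPM in wild type livers against 2.44, 4.53 and 5.60 TPM in the knockout, and its direction turned after median scaling (-0.01) and quantile normalization (-0.03). Mx1 and Mx2, which the deposited table types as transcribed pseudogenes, were at 0.406 to 0.746 TPM and 1.62 to 2.83 TPM over the 6 libraries, with differences of 0.02 (SE 0.17) and -0.22 (SE 0.17); that of Mx1 turned after quantile normalization (-0.04). Cmpk2, Rtp4 (0.33, SE 0.26), Trim30a (0.30, SE 0.28), Samd9l (0.26, SE 0.27) and Eif2ak2, the RNA-activated kinase PKR (0.15, SE 0.16), were higher on average, each with overlapping groups. Ifi44 (0.07), Xaf1 (0.10), Ifi35 (-0.01) and Herc6, which attaches Isg15 to proteins in mice (-0.11), were nearer to 0, and their standard errors were 0.21, 0.20, 0.13 and 0.23.

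The 4 nucleic acid sensors had overlapping groups and limma adjusted p from 0.783 to 0.960. Ddx58 encodes RIG-I, which detects RNA ends, and was at 10.9, 9.16 and 11.4 TPM in wild type livers and 8.45, 14.3 and 17.0 TPM in the knockout. Knockout replicate 1 was the lowest library for Ddx58 and the other two knockout libraries the highest (log2 difference 0.26, SE 0.24). Dhx58 (LGP2, a regulator of the RNA sensors) differed by 0.23 (SE 0.18) and Ifih1 (MDA5, which detects long double-stranded RNA) by 0.07 (SE 0.17). Zbp1, a sensor of Z-form nucleic acids that can start cell death, was at 12.6 TPM in wild type replicate 1 and at 7.02 to 9.54 TPM in the other 5 libraries (-0.07, SE 0.22).

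Among 5 regulators, Irf7 was the 1 whose groups did not overlap, against 13.3% of all genes. Irf7 is the transcription factor that amplifies the type I response, and it lay at 24.0, 12.6 and 19.6 TPM in wild type livers against 25.5, 34.97 and 32.5 TPM in the knockout. The lowest knockout library was close above the highest wild type library (18.7 ± 5.75 against 30.96 ± 4.92 TPM, SD, n = 3 each; log2 difference 0.73, SE 0.24; limma adjusted p 0.542). With 1 library left out the difference ran from 0.48 (without wild type replicate 2) to 0.92 (without wild type replicate 1).

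The other 4 regulators had overlapping groups. Stat2 (-0.02, SE 0.16) and Irf9 (-0.12, SE 0.15), both parts of the type I complex, were at 19.0 to 24.8 TPM and 19.9 to 27.5 TPM over the 6 libraries. Usp18, which removes Isg15 and damps the receptor, was at 9.29, 5.76 and 7.76 TPM in wild type livers and 5.12, 10.3 and 11.1 TPM in the knockout (0.15, SE 0.28). Irf1, the early regulator that answers to both interferons, was at 19.9, 11.7 and 11.2 TPM in wild type livers and 16.95, 16.0 and 16.5 TPM in the knockout (0.24, SE 0.21). The 3 knockout values of Irf1 lay between wild type replicate 1 and the other two wild type libraries.

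All 8 gamma-linked GTPase genes were highest in the same library, wild type replicate 1, and in 6 of them wild type replicate 2 was the lowest of the 6 libraries. Over all genes tested, wild type replicate 1 was the highest library for 15.97% and wild type replicate 2 the lowest for 24.5%. These GTPases attack the vacuoles in which parasites and bacteria live. Igtp was at 62.3, 21.9 and 34.8 TPM in wild type livers against 27.9, 34.1 and 27.7 TPM in the knockout (log2 difference -0.28, SE 0.33). Irgm1, which restrains the others, was at 53.7, 29.4 and 46.7 TPM in wild type livers and 34.4, 40.2 and 32.8 TPM in the knockout (-0.23, SE 0.22). For both genes the knockout libraries lay inside the wild type range.

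Iigp1 was the most abundant of the gamma-linked genes, at 251, 145 and 162 TPM in wild type livers and 140.2, 230 and 157 TPM in the knockout (-0.07, SE 0.25). Tgtp1 had the widest spread in wild type of all 43 genes, 11.9, 1.14 and 1.79 TPM, a 10.4-fold range, against 0.543, 1.61 and 1.17 TPM in the knockout (-1.05, SE 0.62; limma adjusted p 0.718). Without wild type replicate 1 the Tgtp1 difference was -0.25. Tgtp1 and its near-identical copy Tgtp2 can share reads, so their separate values are uncertain, and the same holds for Ifit3 and Ifit3b and for Oas1a and Oas1g. Gbp2 (-0.13, SE 0.36), Gbp6 (-0.15, SE 0.33) and Gbp7 (-0.18, SE 0.28) were lower and Gbp3 (0.09, SE 0.44) higher in the knockout on the log2 scale, none beyond the spread between libraries. The mean of Gbp3 was 10.2 TPM in wild type and 9.89 TPM in the knockout, so its direction depended on the scale. Without wild type replicate 1 the differences of Gbp2, Gbp6, Gbp7, Igtp and Iigp1 were above 0, from 0.10 to 0.31.

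**Figure D3:**
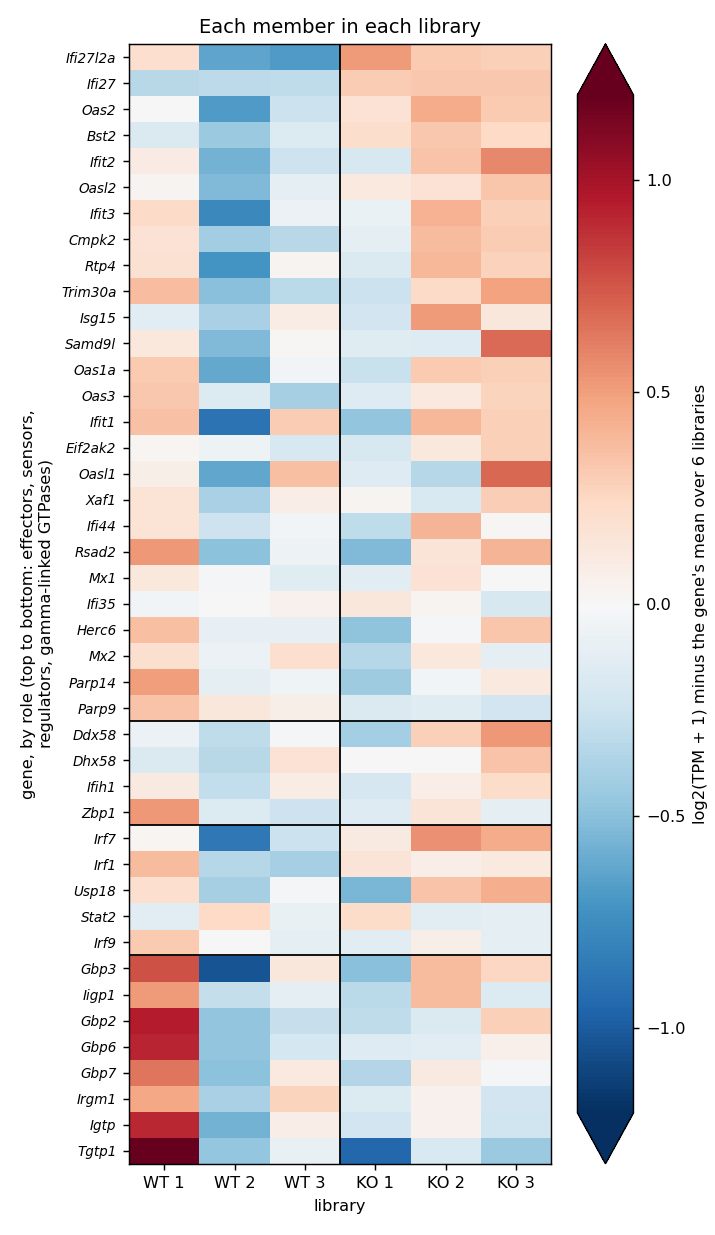
Level of each of the 43 genes in each library, as log2(TPM + 1) centred on the gene's own 6-library mean (red above, blue below; rows by role and then by difference). The gamma-linked block is red throughout in wild type replicate 1, where all 8 genes are highest, and in wild type replicate 2 only 2 of the 34 type I-linked genes lie above their own mean.

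The order of the libraries differed between the gene groups. A list's level in a library is given here as the average over its genes of log2(TPM + 1), each centred on its own 6-library mean. For the type I-linked genes it was 0.15, -0.36 and -0.08 in wild type replicates 1, 2 and 3 and -0.13, 0.18 and 0.24 in knockout replicates 1, 2 and 3. The groups overlapped, with knockout replicate 1 under 2 wild type libraries, and the difference of the group means (0.20) was smaller than the SD within groups (0.23). For the gamma-linked genes the level was 0.91, -0.52 and -0.01 in wild type and -0.37, 0.06 and -0.06 in the knockout, with an SD of 0.72 in wild type and 0.22 in the knockout. Within a library, the type I-linked minus the gamma-linked level was -0.76, 0.16 and -0.07 in wild type and 0.24, 0.12 and 0.31 in the knockout. Knockout replicate 2 lay under wild type replicate 2 on that measure, so these groups overlapped too.

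The spread between libraries was wider in wild type for all 8 gamma-linked and 22 of 34 type I-linked genes (64.7%), against 54.5% of all genes. The ratio of the highest to the lowest wild type library had a median of 2.86 over the gamma-linked and 1.68 over the type I-linked genes, against 1.38 over the same 13817 tested genes, those with a value in every library. In the knockout the medians were 1.49, 1.57 and 1.35.

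Marker lists of other cell types were read in the same libraries, and 0 of their genes passed the adjusted threshold. In whole liver RNA, fewer cells of a type and less RNA per cell cannot be told apart. Of 14 Kupffer cell and macrophage markers 14 were higher in the knockout on average and 2 (14.3%, against 13.3% of all genes) had groups that did not overlap, and the summed level was 827, 275 and 363 TPM in wild type livers and 582, 670.1 and 1256 TPM in the knockout. Of 12 endothelial markers 12 were higher and 9 (75%, against the same 13.3%) did not overlap, with summed levels of 267, 209 and 218 TPM in wild type livers and 328, 301 and 354 TPM in the knockout. No marker of these 2 lists was at 0 in any library. Wild type replicate 2 was the lowest library for 12 of the 14 macrophage, 10 of the 12 endothelial and 17 of the 34 type I-linked genes. It was the lowest for 24.5% of all genes tested. The part of these cells in the interferon-stimulated values was not tested.

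Lymphocyte, dendritic and neutrophil marker lists summed to lower levels. The summed level of 14 T and NK cell markers was 16.2 TPM in wild type replicate 1 and 5.15 and 7.85 TPM in the other wild type libraries, against 9.19 to 10.6 TPM in the knockout, and 11 of the 14 had a value in every library (Ncr1, Eomes and Cd8b1 did not). T and NK cells are known sources of interferon gamma. Wild type replicate 1, the library with the highest gamma-linked level, was also the highest for this sum. The markers were not alike in this. Of 8 tested, 3 were highest in wild type replicate 1, 3 in knockout replicate 1 and 2 in knockout replicate 3. The part of T and NK cells in the gamma-linked values was not tested. Of 10 plasmacytoid dendritic cell markers 4 passed the abundance filter, 3 higher and 1 lower, and the list summed to 26.4 to 59.8 TPM over the 6 libraries. Most of that sum was Ly6d (19.7 to 47.3 TPM), while Siglech and Ccr9 were at 0.0527 to 0.376 and 0.109 to 0.268 TPM. Of 7 conventional dendritic cell markers 4 passed, 3 higher and 1 lower, and of 6 B cell markers 3 passed, all 3 higher, with summed levels of 2.36 to 2.95 TPM in wild type livers and 4.66 to 7.07 TPM in the knockout. Of 8 neutrophil markers 3 passed, all 3 lower on average, with summed levels of 39.6, 49.3 and 20.1 TPM in wild type livers and 14.7 to 20.1 TPM in the knockout. The part of these cells in the interferon-stimulated values was not tested either. Of 12 hepatocyte markers 4 were higher. The rest were lower except Alb, which had the same value in all 6 libraries, and the median difference was -0.02.

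**Figure D4:**
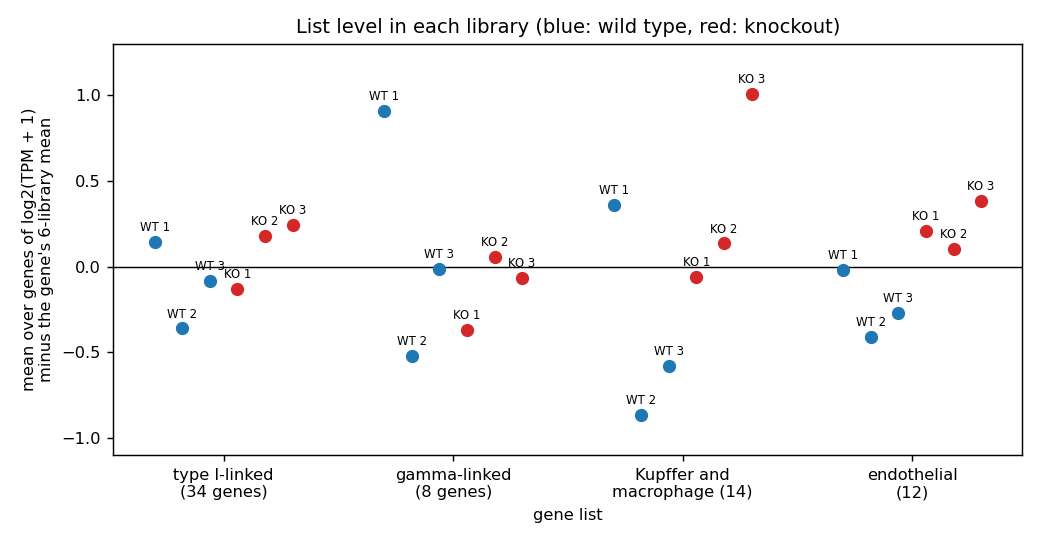
Mean level of 4 gene lists in each library, as log2(TPM + 1) centred on each gene's own 6-library mean (blue wild type, red knockout). Wild type replicate 1 stands at 0.91 for the gamma-linked genes, knockout replicate 3 at 1.01 for the macrophage markers, and wild type replicate 2 is the lowest library in all 4 lists.

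The genes that make and carry the signal stand above the 43 genes in the chain. Of 21 interferon genes 19 had no value in any library, among them Ifnb1 and the Ifna genes listed. Ifng had a value in wild type replicate 1 alone, 0.238 TPM, and Ifnk, a type I interferon of skin, lay between 0.112 and 0.371 TPM in all 6 libraries. No interferon gene reached the abundance filter, and because TPM keeps no depth, the level below which such genes are missed is unknown.

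Of 6 receptor genes 5 were tested and 0 passed over all genes (1 at an unadjusted p under 0.05, against 8.03% of all genes). The type I receptor chains lay on different sides. Ifnar2 was at 27.9, 26.4 and 27.7 TPM in wild type livers and 30.3, 30.7 and 30.6 TPM in the knockout, and Ifnar1 at 10.04, 10.4 and 10.3 TPM in wild type livers and 9.22, 9.10 and 9.67 TPM in the knockout. Neither pair of groups overlapped, and neither difference passed the test (log2 0.16, SE 0.11, limma adjusted p 0.753, and -0.13, SE 0.11, limma adjusted p 0.818). Il10rb, shared by the receptors of interleukin 10 and interferon lambda, was at 11.6, 6.49 and 9.43 TPM in wild type livers and 12.1, 13.3 and 13.0 TPM in the knockout, with no overlap (0.47, SE 0.19; limma adjusted p 0.599). Ifngr1 (0.39, SE 0.18) and Ifngr2 (-0.08, SE 0.15) had overlapping groups, and the lambda receptor Ifnlr1 was under the filter.

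Of 10 JAK and STAT genes and their inhibitors 6 were higher and 4 lower, and 0 passed over all genes. At an unadjusted p under 0.05 there was 1, against 8.03% of all genes. Stat3, the main carrier of interleukin 6 signals, was at 63.1, 87.4 and 47.0 TPM in wild type livers and 42.1, 36.8 and 29.5 TPM in the knockout, with no overlap (-0.82, SE 0.24; limma adjusted p 0.535). Its feedback inhibitor Socs3 was at 22.8 TPM in wild type replicate 2 and at 2.54 to 6.88 TPM in the other libraries (-0.94, SE 0.60). Tyk2, the kinase of the type I receptor, was at 6.37, 5.88 and 6.18 TPM in wild type livers and 8.54, 6.99 and 6.80 TPM in the knockout, with no overlap (0.24, SE 0.13).

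Of 18 genes of nucleic acid sensing and its adaptors 15 were tested, 10 higher and 5 lower, with 0 past the threshold over all genes and 0 at an unadjusted p under 0.05. The smallest p were those of Trim25, which activates RIG-I (-0.39, SE 0.18), the kinase gene Ikbke (0.37, SE 0.18) and the RNA receptor Tlr7 (0.51, SE 0.28). Tbk1, the kinase that activates Irf3, was the 1 of the 15 whose groups did not overlap (-0.21, SE 0.12), against 13.3% of all genes. Among the genes listed with the other interferon regulatory factors, Irf2bp2, which encodes a corepressor that binds Irf2, was at 22.99, 20.7 and 25.1 TPM in wild type livers and 16.7, 15.3 and 14.4 TPM in the knockout, with no overlap (-0.54, SE 0.13; limma adjusted p 0.522). Irf8, a factor of macrophages and dendritic cells, had overlapping groups (-0.10, SE 0.26).

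**Figure D5:**
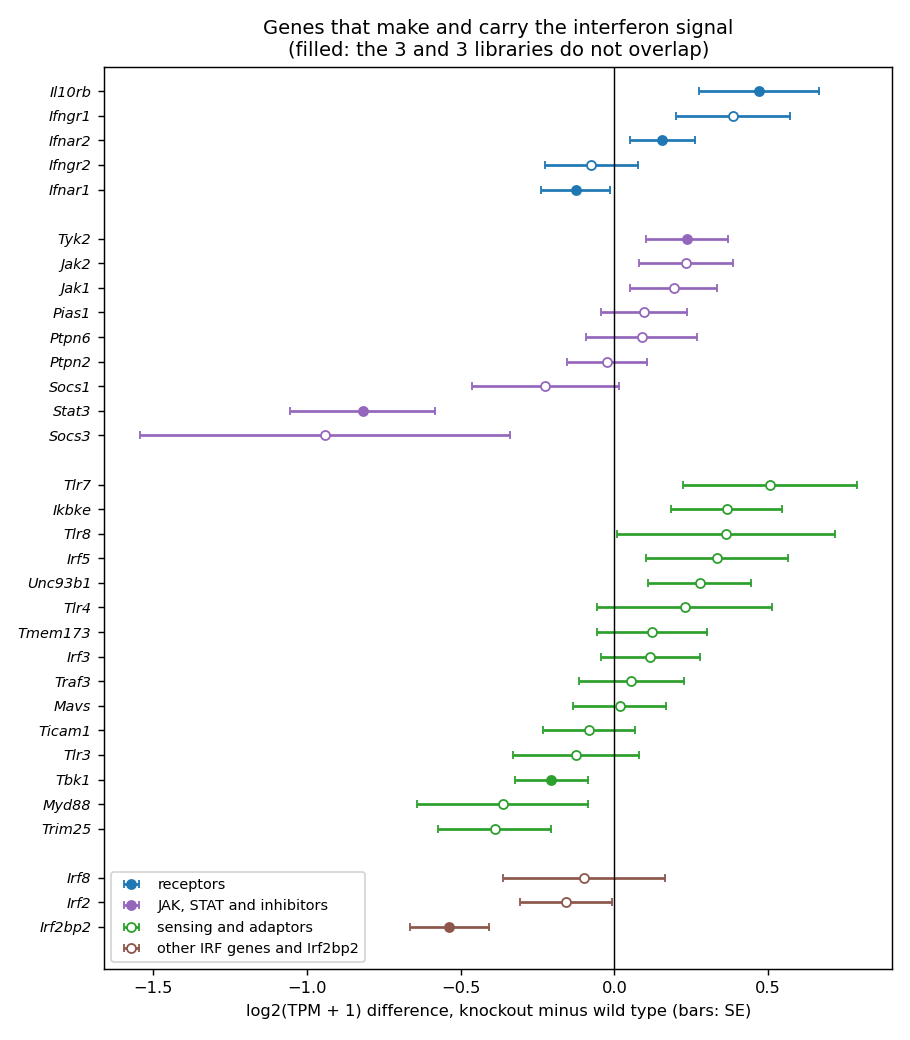
Difference between knockout and wild type on the log2(TPM + 1) scale (points) with its standard error (bars) for tested receptor, JAK-STAT, sensing and IRF genes, of which 2 are not shown; filled points mark groups that do not overlap. Stat3 (-0.82) and Socs3 (-0.94) lie farthest to the left, Tlr7 (0.51) farthest to the right, and no gene passed the test over all genes.

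Interferon targets outside the 43 were counted in the same way, beside 5.12% of all genes higher and 2.91% lower at an unadjusted p under 0.05. Of 38 other type I-linked targets 37 were tested, 24 higher and 13 lower with a median log2 difference of 0.14, and 0 passed over all genes (1 higher and 1 lower at an unadjusted p under 0.05). Besides Dtx3l, the smallest p were those of the schlafen gene Slfn5, at 6.91, 4.39 and 5.80 TPM in wild type livers and 6.98, 8.29 and 10.2 TPM in the knockout (0.51, SE 0.19), and of the DNA-binding gene Ifi203 (0.58, SE 0.25). Of 27 other gamma-linked targets 24 were tested, 14 higher and 10 lower with a median of 0.09, and 0 passed over all genes (2 lower at an unadjusted p under 0.05). Their level was again highest in wild type replicate 1 (0.49) and lowest in wild type replicate 2 (-0.38).

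Among these other gamma-linked targets the lowest difference was that of a GTPase gene. Gbp11 was at 6.86, 6.47 and 8.81 TPM in wild type livers against 2.67, 3.62 and 4.27 TPM in the knockout, with no overlap (-0.90, SE 0.18; limma adjusted p 0.522). Ifi47 was at 30.6, 15.1 and 18.97 TPM in wild type livers against 11.95, 15.5 and 12.9 TPM in the knockout (-0.59, SE 0.25), and Irgm2 at 50.02, 26.6 and 29.6 TPM against 19.5, 30.97 and 21.9 TPM (-0.51, SE 0.26). For Ifi47 the highest knockout library lay just above the lowest wild type library, and for Irgm2 knockout replicate 2 lay inside the wild type range. Gbp10, a close relative of Gbp6 with which it can share reads, followed wild type replicate 1 (9.60 TPM, against 1.50 to 3.87 TPM elsewhere). Its difference was -0.57 (SE 0.46). Other GTPase genes of this list were not lower. Gbp2b (0.44, SE 0.65), Gbp9 (0.31, SE 0.29), Gbp8 (0.27, SE 0.27) and Gbp5 (0.18, SE 0.34) were higher on average, each with overlapping groups. Tgtp2 (0.01, SE 0.33) and Gbp4 (-0.0045, SE 0.28) were near 0.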

How the data were processed

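Total RNA of flash-frozen liver was extracted with TRIzol and sequenced on a HiSeq 2500, per the labels' protocols. FastQC, Trimmomatic and the mm10 build are named in the submitters' processing notes, while the aligner, quantifier, annotation, use of strand and normalization between libraries are not given there. Per the file headers the deposited columns hold TPM, but the numbers are log2 values from -8.88 to 16.59 whose antilogarithms total 983800 to 1018118 in a library. The median of the values present is 1.07 in all 6 columns and Alb has 1 value in all of them, so a shift of all genes between groups cannot be seen. Depth is unknown, since TPM does not keep it, and the number of libraries limits the precision. Wild type replicate 2 lay apart on principal component 1 (-38.1, other libraries -2.50 to 22.3) and knockout replicate 1 on component 2 (-30.8, other libraries -5.92 to 21.8).

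Blank values were taken as 0. The design had been written for TPM, and the antilogarithm brought the values to that unit. limma 3.58.1 in R 4.3.3 (moderated test with a mean-variance trend and no covariate, two-sided) was run on log2(TPM + 1), a scale that understates changes of low genes, for 14155 genes with a mean of at least 0.5 TPM. Benjamini-Hochberg adjustment covered all of them, with a threshold of 0.05. A difference is the knockout minus the wild type value, and SD is the standard deviation. SE is limma's moderated standard error, which draws on the spread of all genes tested as well as the gene's own. The labels do not say that each replicate is a separate mouse, so the p-values reflect variation among libraries that may be technical. Listed genes (251) were matched by symbol or, for 1 gene, by a synonym in the GRCm38.p6 RefSeq table.

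The 43 genes and all lists were chosen with earlier results of these data known. Named genes are, in each role group, up to 6 with the smallest p, the most abundant and those without overlap, and up to 3 of each pathway list; the remaining ones were chosen after their values were seen. On simulated data with the means and spread of the 14155 genes, limma recovered 54.3% of the genes given a log2 change of 1, 91.5% at a change of 2 and 96.3% at a change of 3. Each of 20 simulated sets held 200 changed genes, with noise drawn separately for each gene and library. Shifts of a library shared by many genes were not simulated, so these shares need not hold for the real data. Alternatives were pseudocounts of 0.1 and 5, no filter and a filter at 5 TPM, median scaling, quantile normalization, no trend, a replicate block and leaving out each library. Promoter motifs were not analysed here, and 2 genes of the pathway lists, which stay in the counts, are not reported here.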

Additional observations from a re-analysis of the deposited data

How the results depend on the processing

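No interferon-stimulated gene passed the adjusted threshold (limma) in any of 15 alternatives, where their smallest adjusted p was 0.288. The count of genes past the threshold, 1, became 0 at a pseudocount of 5, 0 with no filter, 0 with the replicate block, 0 to 6 with 1 library left out (0 without wild type replicate 1 or knockout replicate 2, 4 without knockout replicate 3, 6 without wild type replicate 3) and 3 without wild type replicate 2 and knockout replicate 1 together, a setting chosen after seeing the data. Genes at an unadjusted p under 0.05 numbered 657 with the filter at 5 TPM, where fewer genes (8075) were tested, and 682 to 1323 with 1 library left out. With that filter 15 of 22 type I-linked genes were higher. With 1 library left out, 4 to 10 of the 43 genes were at an unadjusted p under 0.05, 19 to 29 type I-linked genes were higher and 2 to 8 gamma-linked genes lower. The labels do not tie the replicate numbers to litters or days, so the numbers were not taken as pairs. Deviations of same-numbered libraries from their group means had correlations of -0.261, -0.265 and -0.049. These correlations cannot show whether litters or days were matched. With the replicate block, 816 genes in place of 1137 were at an unadjusted p under 0.05.

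The direction turned for 22 of the 43 genes in 1 or more alternatives (46 of 632 values), and the cause was not tested. Rsad2 was at -0.0077 after median scaling and -0.0263 after quantile normalization, and Mx1 at -0.0425 after quantile normalization. Without wild type replicate 2 and knockout replicate 1, Oasl1 was at -0.04, Xaf1 at -0.07, Herc6 at 0.03 and Gbp3 at -0.14. With 1 library left out, effectors that turned ranged from -0.25 to 0.42 (Ifit1), -0.0817 to 0.0801 (Ifi35, at -0.0866 in the setting without 2 libraries), -0.11 to 0.24 (Ifi44), -0.0262 to 0.44 (Oas1a), -0.0010 to 0.36 (Oas3), -0.18 to 0.34 (Oasl1), -0.0598 to 0.0929 (Mx1), -0.22 to 0.29 (Rsad2), -0.0756 to 0.21 (Xaf1), -0.0167 to 0.40 (Samd9l) and -0.30 to 0.11 (Herc6). Sensors and regulators that turned ranged from -0.0611 to 0.19 (Ifih1), -0.21 to 0.17 (Zbp1), -0.22 to 0.0010 (Irf9), -0.13 to 0.10 (Stat2) and -0.0284 to 0.46 (Usp18). Gamma-linked genes that turned ranged from -0.40 to 0.31 (Gbp2), -0.41 to 0.49 (Gbp3), -0.43 to 0.26 (Gbp6), -0.47 to 0.10 (Gbp7), -0.63 to 0.10 (Igtp) and -0.28 to 0.16 (Iigp1). The other 21 genes kept their direction. The promoter motif alternative was not run. Depth is unknown with TPM values, and detection of log2 differences under 1 was not simulated.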
